A study of Mus musculus with 15 samples.

Results

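The suppressor of cytokine signaling (SOCS) family comprises *Socs1* to *Socs7* and *Cish*, which were picked by gene symbol and are 8 of the 35142 genes measured here. SOCS proteins are the classical negative feedback on Janus kinase (JAK) and STAT signaling. A cytokine receptor activates JAK kinases, these phosphorylate STAT factors, and STAT dimers then switch on SOCS genes, whose products bind the receptor or the kinase and recruit a ubiquitin ligase through their SOCS box. In the brain, SOCS3 is best known as the brake on STAT3 signaling downstream of receptors that contain gp130, in astrocytes among other cells.

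RNA-seq was performed on 15 cultures of dissociated cerebellar cells, which had been prepared from C57BL/6 wild-type pups aged postnatal day 0 to 4. At day 14 in vitro, murine IL-12p70 from a recombinant source was added for 18 h, to 5 cultures at 30 ng/ml and to 5 at 100 ng/ml, while 5 cultures stayed unstimulated. IL-12p70 is the active heterodimer and signals through IL-12Rβ1 and IL-12Rβ2 to JAK2, TYK2 and STAT4. The comparisons ask how the cytokine, and its concentration, changed the transcriptome. The labels do not state which pups or preparations a culture came from, so the spread between replicates may be partly technical. Depth was 25746096 to 38435850 estimated reads per culture.

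The labels call the cells neurons, yet the marker genes of other cells were more abundant. TPM, an abundance scaled for transcript length and library size, summed over 12 markers of cerebellar neurons reached 193 to 276 in the 15 cultures, against 6586 to 11688 for 12 microglial markers, 3813 to 5278 for 9 astrocyte markers and 5605 to 9287 for 10 markers of the oligodendrocyte lineage. *Pcp2*, which marks Purkinje cells, had at most 3 reads in any culture, while *Calb1* on the same list had up to 1615. The lists of fibroblasts and meninges, of endothelium, and of T and NK cells summed to 418 to 666, 12.8 to 26.4 and 3.03 to 7.35 TPM. *Ncr1*, which marks NK cells, and the endothelial marker *Cldn5* had 0 reads in every culture. Other genes of the same lists were detected, among them *Klrb1c* with up to 37 reads and the endothelial *Flt1* with up to 2536. In bulk RNA, fewer cells of a type and less RNA per cell cannot be told apart.

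All 8 family members were expressed highly enough to be tested, meaning that 2 or more cultures reached 1 CPM, a read count scaled for library size but not for length. *Socs3*, the brake on gp130 receptors and STAT3, was higher in every stimulated culture than in every unstimulated one, and it rose by 1.41-fold at 30 ng/ml and by 1.38-fold at 100 ng/ml. *Socs6*, a member better known for binding receptor tyrosine kinases and insulin receptor signaling proteins, fell by 17.8% at 100 ng/ml, although this call did not hold when any of 7 single cultures was left out. The other 6 members passed no test between groups.

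Short promoter stretches are shown for *Socs3* and *Cish*, since STAT factors bind the palindrome TTCNNNGAA and both genes are known targets of them. A match to these letters is a description and does not show binding. RefSeq promoter windows (GRCm38.p6) were at hand for 4 members (*Socs1*, *Socs3*, *Socs4* and *Cish*). They run from 250 bases before to 50 bases after the RefSeq start of a gene, which is the gene start meant below. The capitals mark the 9 bases of the motif, with 10 bases on either side. The sequences were located by exact match on GRCm39, the *Socs3* stretch at chr11:117860328-117860356 on the minus strand and the *Cish* stretch at chr9:107173848-107173876 on the plus strand.
*Socs3* match before the gene start: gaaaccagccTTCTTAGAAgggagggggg
*Cish* match at the gene start: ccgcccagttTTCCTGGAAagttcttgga

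The *Socs3* motif began 154 bases before the RefSeq start. In GENCODE M39 it lies upstream of Socs3-201, the coding transcript measured here, and inside the 5′ UTR exon of another coding isoform, Socs3-208, which was not among the transcripts quantified in the files. The annotated gene starts further upstream, at 117860898, so the motif also lies within the spans of Socs3-202, Socs3-206 and Socs3-207. The *Cish* motif began at the RefSeq start itself and another one, TTCTTGGAA, began 11 bases further on, both within the 5′ UTR of Cish-201 in GENCODE M39. In that annotation *Cish* starts upstream of both, at 107173225. The windows of *Socs1* and *Socs4* held 0 matches. Since the motif is a palindrome, a search of 1 strand covers both, and overlapping matches were counted separately. Of 32851 windows of the same length, 8.30% held at least 1 match and 0.457% held 2 or more.

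Levels per length, in TPM, placed *Socs3* on top already without stimulation, at 31.6 ± 2.2 (SD, n = 5). *Socs6* (21.9 ± 1.8), *Socs5* (18.3 ± 1.6) and *Socs7* (15.6 ± 1.6) followed, and neighbours in this order overlapped between cultures. *Socs5* encodes an inhibitor of receptor tyrosine kinase and IL-4 receptor signaling, and *Socs7* encodes a member that contacts insulin receptor substrates. *Socs4* (10.8 ± 1.1), *Socs2* (5.71 ± 0.57), the brake on growth hormone receptor signaling, *Cish* (2.15 ± 0.90), a STAT5-induced gene, and *Socs1* (0.628 ± 0.026), the inhibitor of interferon signaling that blocks JAK kinases directly, were each below all 5 values of the member above. In both stimulated groups *Socs3* stayed on top, at 45.4 ± 3.7 and 43.6 ± 1.9 TPM, *Socs5* stood above *Socs6* with overlapping values, and the lower ranks kept their order.

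The summed TPM of the 8 members was 107 ± 6 without IL-12, 125 ± 6 at 30 ng/ml and 112 ± 6 at 100 ng/ml (SD, n = 5 each). *Socs3* made up 29.6% ± 1.4 of this sum without IL-12, 36.4% ± 2.1 at 30 ng/ml and 38.9% ± 3.0 at 100 ng/ml. *Socs6* contributed 20.6% ± 1.7, 16.2% ± 0.7 and 15.3% ± 1.8 in the same groups. Shares of a sum depend on each other. That of *Socs7* was 14.6% without IL-12 and 12.9% at 30 ng/ml, while its mean TPM was 15.6 and 16.1. *Socs1* gave the smallest part, 0.483% to 0.908% in single cultures.

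**Figure D1:**
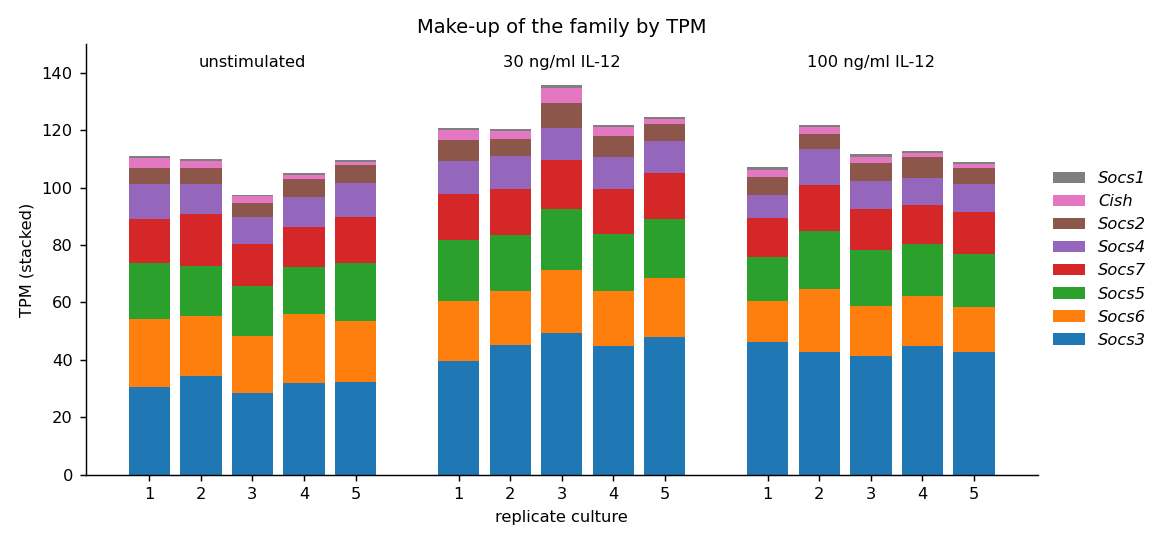
Stacked TPM of the 8 SOCS family genes in each of the 15 cultures, with replicate number on the x axis and TPM on the y axis. The *Socs3* segment at the base spans 28.5 to 34.5 TPM in unstimulated cultures and 39.8 to 49.5 TPM in stimulated ones.

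For *Socs3* (chr11:117856905-117860898 on GRCm39, minus strand), the unstimulated cultures gave 45.6, 52.5, 45.1, 49.7 and 48.0 CPM. At 30 ng/ml the values were 58.3, 66.7, 75.0, 68.5 and 70.5 CPM, and at 100 ng/ml they were 74.0, 62.0, 63.0, 68.9 and 65.2 CPM. The lowest stimulated culture stood above the highest unstimulated culture, and the values at the higher concentration lay within the range of those at the lower one. *Socs3* rose on the log2 scale by 0.49 ± 0.065 (SE) with the lower and 0.47 ± 0.065 with the higher concentration, and its edgeR false discovery rates (FDR) were 0.000452 and 0.000253. These comparisons share the unstimulated cultures. By p-value, *Socs3* ranked 22 among 15360 genes tested for the lower concentration and 77 for the higher. Between the concentrations the log2 difference was -0.02, with a 95% interval of -0.16 to 0.11 and an edgeR FDR of 0.917. *Socs3* was called at each concentration in all 27 settings tried, with log2 fold changes between 0.43 and 0.54.

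The files quantify 3 *Socs3* transcripts, of which Socs3-201, with 2 exons and 2552 bases, is the only one annotated with a coding sequence, and Socs3-202 and Socs3-203 are short (490 and 246 bases). Nearly all *Socs3* reads were assigned to Socs3-201. The coding isoforms Socs3-206, Socs3-207 and Socs3-208 of the later annotation could receive no reads, so the use of *Socs3* isoforms was not measured.

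At 30 ng/ml, 1 of 8 members, *Socs3*, had an edgeR FDR under 0.05, against 7.87% of all genes tested (4.16% higher and 3.71% lower). At 100 ng/ml, 2 of 8 members were called, *Socs3* upward and *Socs6* downward, against 9.77% of all genes (5.83% higher and 3.93% lower). With all 10 stimulated cultures set against the unstimulated ones, *Socs3* and *Socs6* were called again, against 11.9% of all genes (6.71% higher and 5.22% lower). Between the concentrations 0 of 8 members were called by edgeR, against 0.579% of all genes, and DESeq2 also called 0. An unadjusted p under 0.05 was reached by 4 members, the last of which, *Cish*, ranked 1541 by p among 15360 genes tested. Shares of all genes under this cutoff were not computed, here or for the lists below. Groups that did not overlap, with every stimulated culture higher, were seen at 30 ng/ml for 2 of 8 members, *Socs3* and *Socs5*, against 5.44% of all genes, and at 100 ng/ml for *Socs3* alone, against 4.34%.

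**Figure D2:**
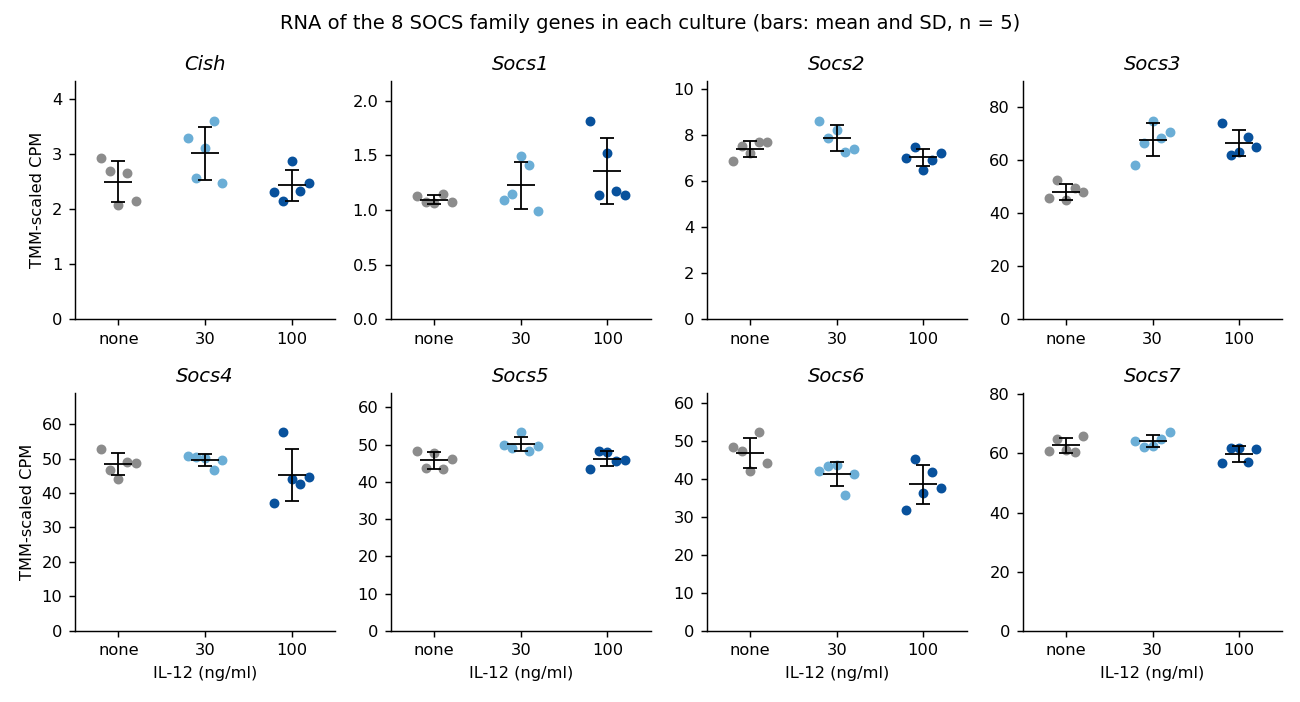
TMM-scaled CPM (y axis, from 0) of each SOCS family gene in unstimulated cultures and with 30 or 100 ng/ml IL-12 (x axis); points are cultures, bars the mean and SD of 5. *Socs3* separates stimulated from unstimulated cultures, while the points of most other members overlap between groups.

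*Socs6* lies on chromosome 18 (88683348 to 88945635, minus strand). Its unstimulated values were 48.4, 47.2, 42.0, 52.2 and 44.3 CPM. With 30 ng/ml it measured 42.1, 43.2, 43.6, 35.8 and 41.4 CPM, and with 100 ng/ml 31.9, 45.3, 36.3, 41.7 and 37.5 CPM. The groups overlapped, with unstimulated replicate 3 as low as several stimulated cultures and replicate 2 of the higher concentration among the unstimulated values. Against unstimulated cultures the difference in log2 was -0.28 ± 0.082 for the higher concentration (edgeR FDR = 0.0380), -0.18 ± 0.082 for the lower one (edgeR FDR = 0.189) and -0.23 ± 0.071 for both together (edgeR FDR = 0.0387).

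The fall of *Socs6* at 100 ng/ml kept its sign in all 27 settings and was called in 17 of them. Leaving out unstimulated replicate 1, 2, 4 or 5, or replicate 1, 3 or 5 at 100 ng/ml, raised the FDR to between 0.0537 and 0.0946, while leaving out replicate 2 at 100 ng/ml lowered it to 0.00678. Without that culture 2932 of 15328 genes were called at 100 ng/ml, against 1500 of 15360 with all cultures. With the replicate number as a block the FDR of *Socs6* was 0.0527. The RNA was spread over several transcripts, of which the leading one, Socs6-203, held 32.7% ± 6.4 of the gene's TPM without IL-12 and 41.6% ± 6.8 at 100 ng/ml (exact permutation test, two-sided, p = 0.0714, adjusted p = 1.0 over 16 tests).

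Cultures differed in the balance of long and short transcripts, here the median log2 deviation from the mean over all cultures of genes with a leading transcript of at least 5000 bases, less that of genes under 2000 bases. This difference was -0.25 in replicate 1 and 0.12 in replicate 2 at 100 ng/ml, 0.16 and 0.13 in unstimulated replicates 1 and 5, and between -0.097 and 0.064 in the other 11 cultures. At 100 ng/ml *Socs4*, *Socs5* and *Socs6* were lowest of their group in replicate 1 and highest in replicate 2. The leading transcripts of *Socs4* and *Socs5* have 6877 and 4648 bases. *Socs7* (7015 bases) was also lowest in replicate 1, at 56.8 CPM, and its 61.9 CPM in replicate 2 was near its highest value of 62.0 CPM. Among unstimulated cultures *Socs6* did not follow this order, since it was highest in replicate 4, where the difference was -0.076, and at 44.3 CPM in replicate 5.

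The transcript of *Socs6* with the highest TPM, Socs6-203, has 2814 bases, but the longer Socs6-201 (6036 bases) held more reads, with a mean of 747 against 377 in unstimulated cultures. The trend on transcript length was removed in 2 alternatives added after the data were seen. With the length of the leading transcript, the FDR of *Socs6* at 100 ng/ml was 0.0278, and with lengths weighted by reads (4453 bases for *Socs6*) it was 0.0297. In both, *Socs3* stayed under 0.05 at each concentration.

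*Socs4* (chr14:47514368-47533559, plus strand) codes for a SOCS protein that acts on the EGF receptor. It ran from 44.1 to 52.8 CPM without IL-12, from 46.5 to 50.9 CPM at 30 ng/ml and from 37.0 to 57.6 CPM at 100 ng/ml. In log2 it differed from unstimulated cultures by 0.04 ± 0.083 and -0.10 ± 0.083, with edgeR FDRs of 0.845 and 0.485. When replicate 2 of the higher concentration was left out, this last value was -0.20 with an edgeR FDR of 0.0239, so a single culture decided the call. Leaving it out also raised the number of all genes called at 100 ng/ml from 1500 to 2932.

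*Socs5* (chr17:87414674-87445267, plus strand) measured 48.3, 43.7, 47.7, 43.3 and 46.0 CPM unstimulated. At 30 ng/ml it gave 49.9, 49.0, 53.3, 48.4 and 49.8 CPM, and at 100 ng/ml 43.3, 48.2, 48.1, 45.6 and 46.0 CPM. All 5 cultures at 30 ng/ml were above all 5 unstimulated cultures, although the nearest pair, 48.4 and 48.3 CPM, nearly touched. The log2 difference of the lower concentration, 0.13 ± 0.045, had an edgeR FDR of 0.0920 and did not pass, although it was 0.0467 with the trend on read-weighted transcript length removed. The log2 difference of the higher one was 0.01 ± 0.045 (edgeR FDR = 0.896).

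*Socs7* (chr11:97253032-97289368, plus strand) had overlapping values in unstimulated cultures and each stimulated group. Its CPM ran from 60.6 to 65.8 unstimulated, from 62.1 to 67.1 at 30 ng/ml and from 56.8 to 62.0 at 100 ng/ml. The log2 differences from unstimulated cultures, 0.03 ± 0.042 and -0.07 ± 0.042, had 95% intervals of -0.05 to 0.12 and -0.15 to 0.02. The edgeR FDRs were 0.691 and 0.330.

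*Socs2* (chr10:95219523-95253929, minus strand) ran from 6.85 to 7.68 CPM without IL-12, from 7.25 to 8.62 CPM at 30 ng/ml and from 6.48 to 7.47 CPM at 100 ng/ml. It differed in log2 by 0.09 ± 0.069 (edgeR FDR = 0.468) and -0.07 ± 0.069 (edgeR FDR = 0.556), and the sign of the latter turned when TPM were used in place of counts. The opposite-strand gene 2310039L15Rik, which overlaps *Socs2*, held 1 to 15 reads per culture.

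*Cish* (chr9:107173225-107179983, plus strand) was scarce, with 55 to 112 reads per culture. Unstimulated cultures gave 2.93, 2.69, 2.08, 2.65 and 2.14 CPM, those with 30 ng/ml gave 3.30, 2.57, 3.11, 3.61 and 2.48 CPM, and those with 100 ng/ml gave 2.32, 2.15, 2.88, 2.32 and 2.48 CPM. All 3 groups overlapped. The log2 differences were 0.26 ± 0.13 for the lower (edgeR FDR = 0.259) and -0.04 ± 0.14 for the higher concentration (edgeR FDR = 0.876), with 95% intervals of -0.02 to 0.55 and -0.33 to 0.24.

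*Socs1* (chr16:10600104-10603875, minus strand) had the fewest reads, 28 to 58 per culture. It gave 1.12, 1.08, 1.06, 1.15 and 1.07 CPM unstimulated, 1.09, 1.15, 1.50, 1.41 and 0.99 CPM at 30 ng/ml, and 1.82, 1.13, 1.52, 1.18 and 1.14 CPM at 100 ng/ml. Replicates 1 and 3 at 100 ng/ml were well above the unstimulated cultures and the other 3 were close to them. The log2 difference of 0.31 ± 0.17 for the higher (95% interval -0.04 to 0.66, edgeR FDR = 0.259) and that of 0.16 ± 0.17 for the lower concentration (95% interval -0.20 to 0.52, edgeR FDR = 0.639) did not pass, and at this depth a change of *Socs1* as large as that of *Socs3* was within the interval.

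**Figure D3:**
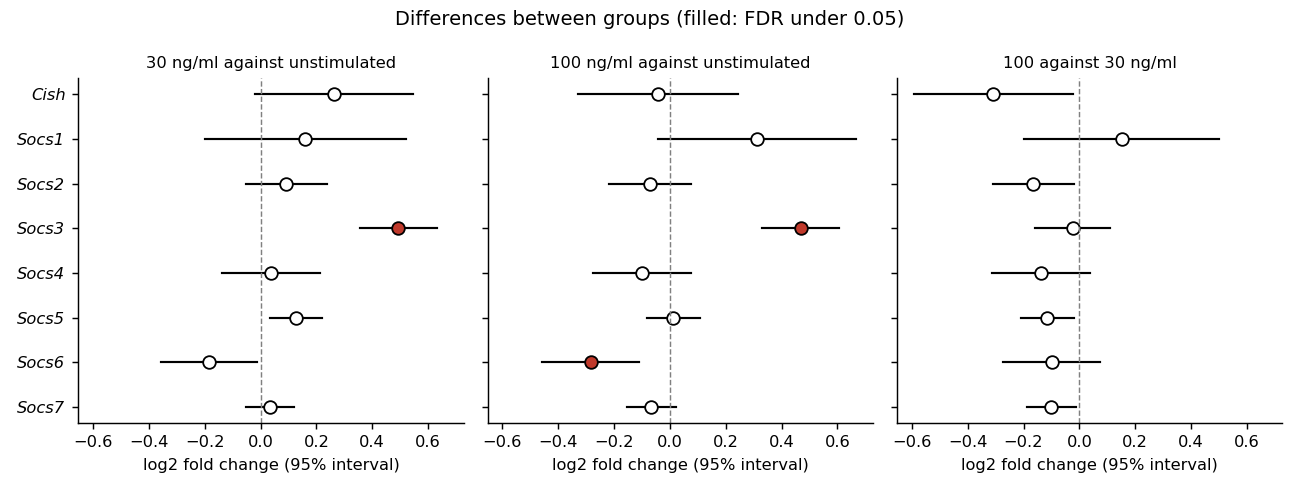
Log2 fold change (x axis) of the 8 SOCS family genes (y axis) in 3 comparisons, with 95% intervals from edgeR; filled points have an FDR under 0.05. *Socs3* lies near 0.5 at both concentrations against unstimulated cultures and near 0 between them, and *Socs6* is the only filled point below 0.

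Between the concentrations, 7 of the 8 members were lower at 100 than at 30 ng/ml, *Socs1* being the exception, and none passed the FDR. The median log2 difference of all genes tested was -0.0036, and the share of all genes that were lower was not computed. The 7 include *Socs3*, whose difference of -0.02 changed sign when some single cultures were left out. All cultures at 100 ng/ml were below all cultures at 30 ng/ml for *Socs5* and *Socs7*, 2 of 8 members against 1.23% of all genes. Their log2 differences were small, -0.11 ± 0.045 for *Socs5* (edgeR FDR = 0.293) and -0.10 ± 0.042 for *Socs7* (edgeR FDR = 0.317). *Cish* differed by -0.31 ± 0.13 (edgeR FDR = 0.347) and *Socs2* by -0.16 ± 0.069 (edgeR FDR = 0.327).

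The share of a member's TPM held by its leading transcript was compared for each member and concentration. None of the 16 exact permutation tests had an unadjusted p under 0.05, and the lowest was 0.0714. Socs4-201 held 93.7% to 100% of its gene's TPM and Socs7-201 held 78.8% to 94.5%. For *Socs1* the estimates put anything from 0% to 100% on Socs1-201 in single cultures, from few reads over 2 transcripts of 2785 and 2908 bases.

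RNA of the IL-12 receptor chains and their kinases was detected, while *Stat4*, the factor that IL-12 activates, had 0 to 6 reads per culture and was not tested. *Il12rb2*, the signaling chain of the IL-12 receptor, measured 2.14 ± 0.22 TPM unstimulated, 2.19 ± 0.34 with the lower and 2.48 ± 0.28 with the higher concentration, and *Il12rb1*, its partner chain, was at 0.782 ± 0.14, 0.693 ± 0.19 and 0.896 ± 0.38 TPM. The kinase genes *Jak2* and *Tyk2* were at 21.3 ± 2.1 and 13.5 ± 1.1 TPM in unstimulated cultures. None of the 4 tested genes of this list passed in edgeR or DESeq2 at either concentration. At 100 ng/ml 1 of them had an unadjusted p under 0.05, *Il12rb2*, with a log2 fold change of 0.25 ± 0.11 (edgeR FDR = 0.184). With both concentrations together 0 had one (log2 fold changes 0.13 for *Il12rb2*, -0.18 for *Il12rb1*, -0.05 for *Jak2* and 0.03 for *Tyk2*).

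Of 12 genes that STAT3 is known to induce, all tested, 8 rose and 0 fell with both concentrations together, against 6.71% and 5.22% of all genes. At each concentration 6 rose, against 4.16% of all genes at 30 ng/ml and 5.83% at 100 ng/ml. The median log2 fold change of the 12 genes with both together was 0.26, against -0.0023 for all genes tested. *Timp1*, a metalloproteinase inhibitor, had 18.8 ± 1.1 CPM unstimulated, 30.1 ± 2.1 with the lower and 37.5 ± 4.4 with the higher concentration, and changed by 0.84 ± 0.065 on the log2 scale for both together (edgeR FDR = 5.47e-07). *Bcl3*, a nuclear cofactor of NF-kB, changed by 0.68 ± 0.056 (edgeR FDR = 8.05e-07), *Serpina3n*, a serine protease inhibitor of reactive astrocytes, by 0.66 ± 0.065 (edgeR FDR = 6.99e-06), and *Steap4*, a metalloreductase, by 0.87 ± 0.12 (edgeR FDR = 0.000240). This list was written with earlier results of these data known, so its direction is not independent evidence.

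**Figure D4:**
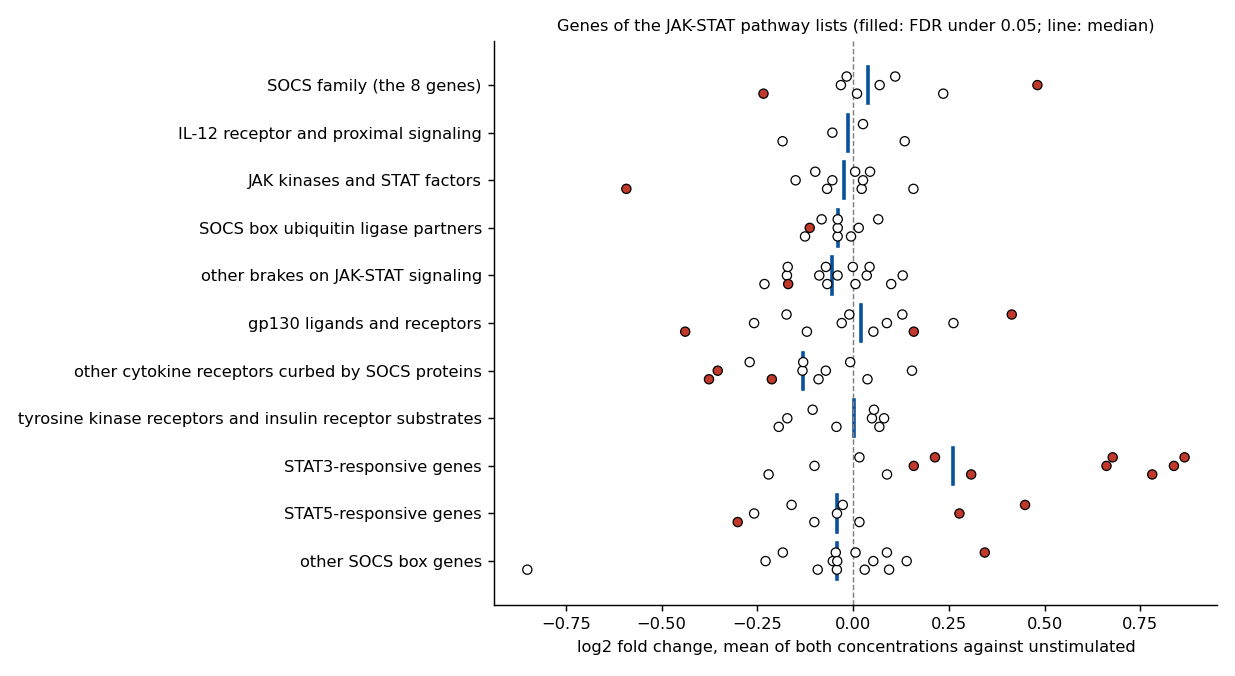
Log2 fold change of both concentrations together against unstimulated cultures (x axis) for each tested gene of the lists (y axis); filled points have an edgeR FDR under 0.05 and the line is the median of a list. The STAT3-responsive genes have 8 filled points, all above 0, while lists of JAK kinases, SOCS box partners and other brakes have 1 each, all below 0.

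For the other lists, counts are given for both concentrations together, where 6.71% of all genes were higher and 5.22% lower, and then for single concentrations where other genes passed. Among 14 genes for phosphatases, PIAS proteins and other inhibitors, 0 rose and 1 fell, the ubiquitin ligase gene *Cblb* (log2 fold change -0.17 ± 0.054, edgeR FDR = 0.0481). Among 9 genes of the SOCS box ubiquitin ligase, 0 rose and 1 fell, *Rnf7*, whose product pairs with cullin 5 (-0.11 ± 0.033, edgeR FDR = 0.0333). Of 15 tested genes for other SOCS box proteins, 1 rose, *Rab40b* (0.34 ± 0.11, edgeR FDR = 0.0449), and 0 fell. When each of the 15 cultures was left out in turn, the call of *Cblb* was lost 12 times, that of *Rnf7* 8 times and that of *Rab40b* 11 times. At a single concentration 3 further genes passed. The lipid phosphatase gene *Inpp5d* was lower at 30 ng/ml (-0.31, edgeR FDR = 0.0350), and of the SOCS box genes *Asb13* was higher at 30 ng/ml (0.19, edgeR FDR = 0.0292) and *Wsb1* lower at 100 ng/ml (-0.23, edgeR FDR = 0.0475). These calls were lost for 5, 6 and 12 of the 15 cultures left out.

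Of 10 JAK and STAT genes tested, 0 rose and 1 fell with both concentrations together, *Jak3*, the kinase of gamma-chain receptors (-0.59 ± 0.086, edgeR FDR = 0.000275), which also fell at each concentration. At 100 ng/ml *Stat5a*, a factor of growth hormone and prolactin signaling, was higher (0.26 ± 0.078, edgeR FDR = 0.0401), and at 30 ng/ml *Stat6*, the factor of IL-4 signaling, was lower (-0.25 ± 0.066, edgeR FDR = 0.0296). Leaving out single cultures lost the call of *Stat5a* 7 times and that of *Stat6* 6 times out of 15.

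Of 12 genes for gp130 ligands and receptors, 2 rose with both concentrations together, the cytokine gene *Lif* (0.41 ± 0.10, edgeR FDR = 0.0158) and the oncostatin M receptor gene *Osmr* (0.16 ± 0.044, edgeR FDR = 0.0260), and 1 fell, the leptin receptor gene *Lepr* (-0.44 ± 0.11, edgeR FDR = 0.0160). *Osmr* is also counted among the STAT3-responsive genes. At 30 ng/ml *Lif* and *Osmr* passed, and at 100 ng/ml *Lepr* alone. *Lif* measured 16.4 ± 2.0 CPM unstimulated, 22.5 ± 3.8 with the lower and 21.2 ± 3.4 with the higher concentration. The call of *Lepr* rested on counts, since its log2 fold change was -0.16 (FDR = 0.615) with length-scaled TPM in edgeR and -0.13 (FDR = 0.705) with limma on TPM. *Osmr* also lost its call in these settings (FDR = 0.125 and 0.230), with nearly the same fold change. Without unstimulated replicate 1 the FDR of *Lif* was 0.0552, without replicate 3 it was 0.0702 for *Osmr* and 0.0519 for *Lepr*, and without replicate 4 it was 0.0817 and 0.0606.

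Of 11 other cytokine receptor genes, 0 rose and 3 fell with both concentrations together, *Il10ra* (-0.38), *Csf2rb* (-0.35) and *Ifngr1* (-0.21), with edgeR FDRs of 0.00915, 0.0132 and 0.0109. At 30 ng/ml 5 of the 11 passed in edgeR and 7 in DESeq2, against 7.87% of all genes in edgeR and 1668 of 15360 genes in DESeq2. The same 3 genes and the G-CSF receptor gene *Csf3r* (-0.39, edgeR FDR = 0.0282) were lower, and the growth hormone receptor gene *Ghr* was higher (0.21, edgeR FDR = 0.0407). The summed microglial markers had ratios to unstimulated cultures of 0.757 at 30 ng/ml and 0.905 at 100 ng/ml (exact permutation test, adjusted p = 0.0556 and 0.344). The part of cell composition in the changes of these receptor genes was not tested. At 100 ng/ml 0 passed in edgeR or DESeq2, and 3 had an unadjusted p under 0.05, a cutoff for which no share over all genes was computed. The calls of *Csf3r* and *Ghr* were lost for 4 and 6 of the 15 cultures left out. That of *Csf2rb* in both concentrations together was lost without unstimulated replicate 3 (FDR = 0.0507), with length-scaled TPM (-0.28, FDR = 0.243) and with limma on TPM (-0.25, FDR = 0.363). None of 8 genes for tyrosine kinase receptors and insulin receptor substrates passed in edgeR with both together, and 1 had an unadjusted p under 0.05. DESeq2 called 1 of the 8, against 2325 of 15360 genes.

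Of 9 STAT5-responsive genes, 2 rose, the stress-response gene *Gadd45g* (0.45, edgeR FDR = 0.000215) and the cyclin gene *Ccnd1* (0.28, edgeR FDR = 0.00142), and 1 fell, the growth factor gene *Igf1* (-0.30, edgeR FDR = 0.0334). The call of *Igf1* was lost for 7 of the 15 cultures left out, and its log2 fold change was -0.10 (FDR = 0.489) with length-scaled TPM and -0.09 (FDR = 0.579) with limma on TPM.

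Over the 15 cultures, the protein-coding genes whose log2 CPM followed *Socs3* most closely were *Crygs* (Pearson r = 0.96), *Rasl11a* (0.94) and *Bcl3* (0.94), out of 13873 genes compared. After the group means were subtracted, r was 0.81, 0.77 and 0.57. The points share libraries and the difference between groups. *Crygs*, which encodes a lens crystallin, ran from 1.08 to 1.52 log2 CPM unstimulated and from 1.89 to 2.52 log2 CPM in stimulated cultures. *Rasl11a*, which encodes a small GTPase, rose by 0.40 ± 0.061 in both concentrations together (edgeR FDR = 0.000419), and *Crygs* rose by 0.91 ± 0.11 (edgeR FDR = 6.60e-05).

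For *Socs6*, the 3 closest genes were *Cab39* (r = 0.96), *Lims1* (0.94) and *Fcho2* (0.93), and r remained 0.94, 0.91 and 0.90 after the group means were subtracted. For *Socs4* they were *Ythdc2* (0.96), *Bmpr2* (0.95) and *Zbtb41* (0.95), also with little change after subtraction (0.97, 0.97 and 0.95). *Socs4* and *Socs6* themselves had r = 0.70, and 0.79 after subtraction. The balance of long and short transcripts moved with both genes in replicates 1 and 2 at 100 ng/ml, and its part in the correlations was not tested.

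**Figure D5:**
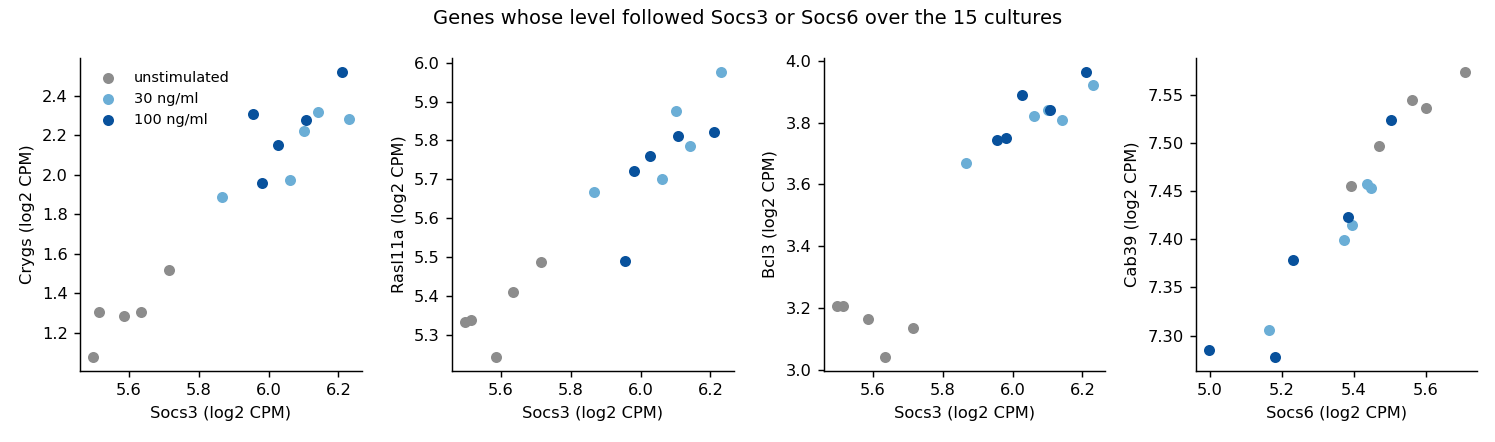
Log2 CPM of *Crygs*, *Rasl11a* and *Bcl3* (y axes) against *Socs3*, and of *Cab39* against *Socs6* (x axes), with 1 point per culture coloured by group. Along the *Socs3* axis the stimulated cultures lie to the right of the unstimulated ones, and the *Socs6* points of the 3 groups intermix.

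For the remaining members the closest were *Bend7* for *Socs5* (r = 0.92), *Ankrd50* for *Socs7* (0.89), *Nudt18* for *Socs1* (0.86), *Dlk1* for *Cish* (0.84) and *Pcdhb18* for *Socs2* (0.83). Next came *Noc3l* and *Rps6ka6*, *Jam2* and *Pcdh10*, *Tnfaip8l1* and *Il18bp*, *Hunk* and *Fam149b*, and *Sybu* and *Fam120b*, in the same order of members, with r between 0.80 and 0.89. For the closest gene of each member, r after subtraction of the group means was 0.85, 0.81, 0.83, 0.80 and 0.70. These genes were picked as the highest of 13873 correlations over 15 cultures, and the r that unrelated genes would reach was not tested.

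Microglial markers summed to 10001 ± 1383 TPM unstimulated, 7568 ± 739 at 30 ng/ml and 9055 ± 902 at 100 ng/ml, and astrocyte markers to 4157 ± 197, 4835 ± 299 and 4560 ± 191 TPM. In the same order, markers of the oligodendrocyte lineage summed to 7702 ± 1243, 7031 ± 679 and 6176 ± 480 TPM, and those of endothelium to 22.6 ± 3.2, 15.5 ± 1.7 and 16.1 ± 1.7 TPM. *Flt1* made up most of the endothelial sum, with medians of 20.2, 13.5 and 12.9 TPM, while *Cdh5* had medians of 2.43, 2.12 and 2.33 TPM. Of 14 exact permutation tests over the 7 lists and both concentrations, 6 had an unadjusted p under 0.05 and 0 passed after adjustment (lowest adjusted p = 0.0556). Relative to unstimulated cultures the astrocyte sum had ratios of 1.16 and 1.10 with the lower and higher concentration, where *Socs3* CPM had fold changes of 1.41 and 1.38. The oligodendrocyte sum had ratios of 0.913 and 0.802 (exact permutation test, adjusted p = 0.394 and 0.0926), that of endothelium 0.687 and 0.712 (adjusted p = 0.0556 for each) and that of microglia 0.757 and 0.905 (adjusted p = 0.0556 and 0.344), where *Socs6* had log2 fold changes of -0.18 and -0.28. *Gfap*, an astrocyte marker that is also on the STAT3-responsive list, rose by 0.21 ± 0.062 on the log2 scale (edgeR FDR = 0.0313). It was the largest part of the astrocyte sum, with means of 2366 TPM unstimulated, 2804 at 30 ng/ml and 2720 at 100 ng/ml. Other astrocyte markers went both ways at 100 ng/ml. Median TPM went from 153 to 127 for *Gja1* and from 64.8 to 56.0 for *Sox9*, but from 381 to 479 for *Aldoc*. The part of cell composition in the rise of *Socs3*, the fall of *Socs6* and the changes of the genes on the lists was not tested.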

How the data were processed

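Bulk RNA-seq of 15 cultures (5 per group) was analysed; libraries were stranded, poly(A)-selected and made by the authors from total RNA. The deposited files give, for each of 121798 transcripts, a length, an effective length, an estimated count and TPM. The program behind them is not given in the sources used here. The submitters' processing notes name FastQC 0.10.0, STAR 2.7.8a, featureCounts and GRCm39, and the authors' methods name GENCODE M26 and edgeR on gene counts, which the plan had assumed.

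Deposited estimated counts and deposited TPM were summed per gene with GENCODE M39 on GRCm39 (99.0% of transcripts matched; the rest held 0.677% to 0.712% of reads) and counts were rounded. Reads shared by overlapping genes or paralogs were divided by the estimating program. The 15360 genes that reached 1 CPM in 2 or more cultures were scaled by TMM and tested in 1 fit of the 3 groups with edgeR's quasi-likelihood test, with Benjamini-Hochberg FDR over all genes and a threshold of 0.05. The typical biological coefficient of variation was 8.00%. CPM are TMM-scaled. Intervals are 95%. Transcript shares and marker sums were compared by two-sided exact permutation tests (smallest p with 5 against 5, 0.00794), adjusted over each set of tests. Settings tried were DESeq2, other scalings and filters, a likelihood-ratio test, only the groups compared, a replicate block, length-scaled TPM, limma on log2(TPM + 0.1), other thresholds, each culture left out and, added after the data were seen, a trend on transcript length removed. R 4.3.3, edgeR 4.0.16, limma 3.58.1, DESeq2 1.42.0 and Python 3.11.15 were used, and scripts were tested on simulated counts.

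The members, the gene lists and the rule for named genes were chosen with earlier results of these data known. Named are all members, up to 4 called genes per list with the smallest p (and further *Gfap* and genes that passed at a single concentration, chosen after their values were seen), the IL-12 receptor list, and the 3 protein-coding genes most correlated with each member (log2 CPM, prior count 2, mean of at least 1 CPM). The results of 2 further gene lists are not reported here.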

Additional observations from a re-analysis of the deposited data

Results flagged for a closer look

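Of 45 groups of 5 cultures, over the CPM of the members and the marker sums, 3 held a culture whose distance to the nearest other culture was over 0.71 of the group's range, while chance gives about 1 in 20. *Socs6* in replicate 4 at 30 ng/ml was 35.8 CPM, below the 41.4 to 43.6 CPM of the other 4. The astrocyte markers summed to 3813 TPM in an unstimulated culture, below the 4166 to 4275 TPM of the others, and to 4230 TPM in a culture at 100 ng/ml, below the 4560 to 4690 TPM of the others.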

How the results depend on the processing

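The call of *Socs3* at each concentration and in both together held in every setting tried. The number of members called at 100 ng/ml went from 2 to 1, with *Socs6* lost, at an FDR of 0.01, with the replicate block, with limma on TPM and with only the groups compared, and it ranged from 1 to 3 when single cultures were left out. With both concentrations together it went from 2 to 1 at an FDR of 0.01, with the replicate block, with length-scaled TPM and with limma on TPM, and ranged from 1 to 2 over cultures left out. At 30 ng/ml it went from 1 to 2, with *Socs5* added, at an FDR of 0.1 and with the trend on read-weighted length removed. The cause was not tested. The labels do not state whether replicate numbers mark paired cultures. Same-numbered cultures correlated between -0.18 and 0.26 after group means, and 5 of 15 correlated best with their own number. These values do not settle whether such cultures shared pups or a preparation. With the replicate block, 1169 genes were called at 100 ng/ml, against 1500 without.

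Signs turned for values near 0. For *Socs2* at 100 ng/ml the log2 fold change was 0.13 with length-scaled TPM and 0.10 with limma on TPM. With the length trend removed it was -0.0041 for *Socs2* and 0.0049 for *Socs7* in both concentrations together, and -0.00097 and 0.0057 with read-weighted lengths. Over cultures left out, the log2 fold change at 100 ng/ml ranged from -0.11 to 0.025 for *Cish* and from -0.0073 to 0.035 for *Socs5*, and that between concentrations from -0.073 to 0.014 for *Socs3*. In both concentrations together it ranged from -0.018 to 0.025 for *Socs2*, from -0.082 to 0.0036 for *Socs4*, from -0.029 to 0.0011 for *Socs7* and from -0.0019 to 0.081 for *Tyk2*. Among the other genes named, *Lepr*, *Osmr*, *Csf2rb*, *Igf1*, *Cblb*, *Rnf7*, *Csf3r*, *Ghr*, *Stat5a* and *Wsb1* were no longer called with either length-scaled TPM or limma on TPM, *Rab40b* with the former and *Stat6* and *Inpp5d* with the latter. For *Asb13* at 30 ng/ml the log2 fold change was 0.41 with length-scaled TPM and 0.43 with limma on TPM.

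Differences in the leading transcript's share, in percentage points, turned with shares of estimated counts to 2.83 for *Socs2* at 30 ng/ml and 0.149 for *Socs5* at 100 ng/ml. Over cultures left out, at 30 ng/ml they ranged from -13.3 to 5.99 for *Socs2*, from -1.26 to 1.15 for *Socs4*, from -2.63 to 0.809 for *Socs5* and from -1.13 to 4.25 for *Socs6*. At 100 ng/ml they ranged from -23.2 to 6.20 for *Socs1*, from -0.467 to 1.15 for *Socs4*, from -1.85 to 1.60 for *Socs5*, from -1.26 to 2.67 for *Socs7* and from -10.8 to 4.76 for *Cish*. Depth limits *Socs1*, *Cish* and *Socs2*, whose transcript shares rest on few reads.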
